A study of Mus musculus with 15 samples.

Results

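The 8 genes described here are made by fat cells. They are Adipoq, Plin1, Plin4, Cfd, Cidec, Retn, Lpl and Car3, chosen by gene symbol as genes that mark adipocytes, out of 23510 gene IDs in a table of RNA levels from 15 mouse testis libraries. Earlier results of these data were known when they were chosen. All 8 were present in the table, all 8 were above 0 in every library, and 6 of them had a mean level high enough to enter the tests across all genes. The question was whether fat tissue next to the testis entered the libraries in different amounts.

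The mice were of the ICR strain. Per the study's methods, males received lentivirus in the testis at 5 weeks of age and were sampled 10 days later. The knockdown groups M1, M3 and M5 each received a mix of 3 short hairpin RNAs against 1 muscarinic acetylcholine receptor. MNC received the vector control of the lentivirus, and Con is labelled as control with no virus named. The study's methods list a hairpin sequence, shNC, for the control virus. Each group had 3 libraries, and what Con animals received, and whether each library was 1 animal, is not given in the sources used here. The labels name no cell type to which the knockdown was limited. If the 3 libraries of a group were not separate animals, the p-values measure technical spread.

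Adipocytes store fat as triglyceride in a large lipid droplet and release hormones and enzymes into the blood. Perilipins and Cidec coat and enlarge the droplet, lipoprotein lipase draws fatty acids from circulating lipoproteins, and adiponectin, resistin and adipsin are secreted. In the mouse a large fat pad is attached to the testis and epididymis, while the inside of the testis holds few or no adipocytes. Germ cells, Leydig cells and Sertoli cells also handle lipids, so some genes of fat metabolism are used by the testis itself.

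The data showed a shared rise and fall of 7 of the 8 genes from library to library, and a different pattern for Adipoq. The 7 genes summed to 4.79 FPKM in M3 replicate 1 and to 41.26 FPKM in MNC replicate 3, a range of 8.61-fold. FPKM counts fragments per length of the gene and per total of fragments mapped in the library, so levels of different genes can be compared. The spread lay largely within groups. In Con the sum was 38.46, 24.99 and 5.76 FPKM in replicates 1, 2 and 3, and in MNC it was 20.43, 9.49 and 41.26 FPKM. M3 was the group with low sums in all of its libraries, at 4.79, 9.35 and 7.8 FPKM. In M1 the sum was 12.57, 17.13 and 24.36 FPKM, and in M5 it was 22.62, 30.16 and 18.87 FPKM. In bulk tissue, more fat cells and more RNA of these genes per fat cell cannot be told apart.

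**Figure D1:**
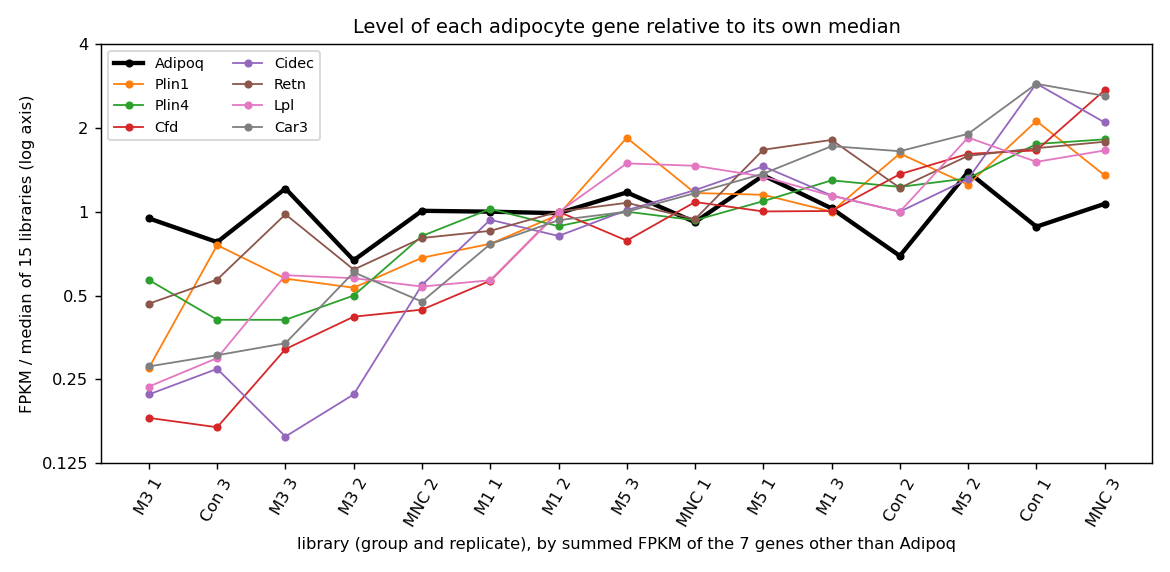
Level of each of the 8 genes in each library, divided by the gene's own median over the 15 libraries (vertical axis, log scale), with libraries ordered by the summed FPKM of the 7 genes other than Adipoq (horizontal axis). The thin lines climb together from M3 replicate 1 (sum 4.79 FPKM) to MNC replicate 3 (41.26 FPKM), while the thick line of Adipoq stays near its median.

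The libraries were testis by their defining markers. Prm1, a protamine of spermatids, ranged from 2951 to 9026 FPKM, Insl3 of Leydig cells from 488 to 2382 FPKM, and Clu, an abundant Sertoli cell product, from 293 to 552 FPKM. The targeted receptors were near the floor of the table. Chrm5 had 0.37, 0.22 and 0.37 FPKM in the M5 libraries against 0.43, 0.23 and 0.43 in those of MNC (exact permutation p = 0.5, two-sided). Chrm1 in M1 and Chrm3 in M3 did not differ detectably from MNC either (exact permutation p = 0.9 and 0.3), where 0.1 is the smallest p that 3 against 3 libraries allow. The receptor levels therefore do not check the group labels. Summed FPKM per library was 470240 to 513820, and 20619 to 20840 genes per library were above 0. M5 replicate 3 stood apart in several marker lists, with 349 FPKM of macrophage genes and 491 FPKM of red blood cell genes.

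Among the secreted products, Cfd encodes adipsin, also called complement factor D, a serine protease of the alternative complement pathway. It lies at chr10:79890853-79892655 on the plus strand of GRCm38. Cfd was at 8.58, 7.05 and 0.87 FPKM in Con replicates 1, 2 and 3, at 5.6, 2.3 and 14.12 in MNC, at 2.92, 5.17 and 5.2 in M1, at 0.94, 2.17 and 1.66 in M3 and at 5.18, 8.34 and 4.07 in M5. It was highest in MNC replicate 3 and lowest in Con replicate 3, a 16.2-fold range. The Con and MNC libraries spanned nearly that whole range, and the 3 M3 libraries lay below every M5 and every MNC library.

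Retn encodes resistin, a small hormone that in the mouse is made chiefly by adipocytes. It lies at chr8:3655770-3660110 on the plus strand. Retn was at 3.11, 2.24 and 1.05 FPKM in Con replicates 1, 2 and 3, at 1.73, 1.48 and 3.28 in MNC, at 1.57, 1.84 and 3.33 in M1, at 0.86, 1.14 and 1.8 in M3 and at 3.07, 2.92 and 1.98 in M5. Its range of 3.87-fold was the narrowest of the 7 genes that moved together. M1 replicate 3, MNC replicate 3 and Con replicate 1 were highest, and M3 replicate 1 was lowest.

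Adipoq encodes adiponectin, the most familiar hormone of fat cells. It lies at chr16:23146536-23158028 on the plus strand. Adipoq was at 8.54, 6.71 and 7.52 FPKM in Con replicates 1, 2 and 3, at 8.87, 9.74 and 10.32 in MNC, at 9.67, 9.55 and 9.94 in M1, at 9.15, 6.47 and 11.71 in M3 and at 13.05, 13.43 and 11.34 in M5. Its whole range was 2.08-fold. All 3 Con libraries were below all 3 MNC and all 3 M1 libraries, and the M5 libraries were above those of Con, MNC and M1. M3 spanned from 6.47, the lowest value of the 15 libraries, to 11.71 FPKM, so M3 overlapped with each of the other groups.

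Plin1 encodes perilipin 1, which coats the lipid droplet of adipocytes and gates its breakdown. It lies at chr7:79720218-79732903 on the minus strand. Plin1 was at 2.54, 1.94 and 0.91 FPKM in Con replicates 1, 2 and 3, at 1.4, 0.82 and 1.62 in MNC, at 0.92, 1.17 and 1.2 in M1, at 0.33, 0.64 and 0.69 in M3 and at 1.38, 1.5 and 2.21 in M5. It was highest in Con replicate 1 and M5 replicate 3, and each M3 library was below each library of every other group. Its range was 7.70-fold.

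Plin4 and Cidec were the members too low for the tests across all genes. Plin4, a perilipin of small and growing droplets, lies at chr17:56100591-56109803 on the minus strand and overlaps Hdgfl2 by 17 bases, where an unstranded count cannot separate the 2 genes. Plin4 was at 0.77, 0.54 and 0.18 FPKM in Con replicates 1, 2 and 3, at 0.41, 0.36 and 0.8 in MNC, at 0.45, 0.39 and 0.57 in M1, at 0.25, 0.22 and 0.18 in M3 and at 0.48, 0.58 and 0.44 in M5. Con replicate 3 and M3 replicate 3, both at 0.18, were the lowest, and M3 lay below MNC, M1 and M5 without overlap.

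Cidec promotes fusion of lipid droplets into large ones. It lies at chr6:113424634-113435760 on the minus strand. Cidec was at 2.22, 0.77 and 0.21 FPKM in Con replicates 1, 2 and 3, at 0.92, 0.42 and 1.61 in MNC, at 0.72, 0.63 and 0.88 in M1, at 0.17, 0.17 and 0.12 in M3 and at 1.12, 1.01 and 0.78 in M5. M3 had 0.153 ± 0.029 FPKM (SD, n = 3), and every M3 library was below every library outside the group. Con replicate 1 was the highest, 10.6 times Con replicate 3 of the same group. At such levels a value can rest on few reads.

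Lpl encodes lipoprotein lipase, made by fat and muscle among other tissues. It lies at chr8:68880491-68907448 on the plus strand. Lpl was at 3.14, 2.08 and 0.62 FPKM in Con replicates 1, 2 and 3, at 3.04, 1.12 and 3.45 in MNC, at 1.18, 2.07 and 2.37 in M1, at 0.49, 1.2 and 1.23 in M3 and at 2.78, 3.84 and 3.1 in M5. The highest library was M5 replicate 2 and the lowest was M3 replicate 1, 7.84-fold apart. M5 did not overlap with M1 or M3, and its lowest library was below those of MNC replicates 1 and 3.

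Car3 encodes carbonic anhydrase 3, abundant in adipocytes and in slow skeletal muscle. It lies at chr3:14863512-14872523 on the plus strand. Car3 was at 18.1, 10.37 and 1.92 FPKM in Con replicates 1, 2 and 3, at 7.33, 2.99 and 16.38 in MNC, at 4.81, 5.86 and 10.81 in M1, at 1.75, 3.81 and 2.12 in M3 and at 8.61, 11.97 and 6.29 in M5. It was highest in Con replicate 1 and MNC replicate 3 and lowest in M3 replicate 1, a 10.3-fold range. Con replicate 3 was within the range of M3.

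**Figure D2:**
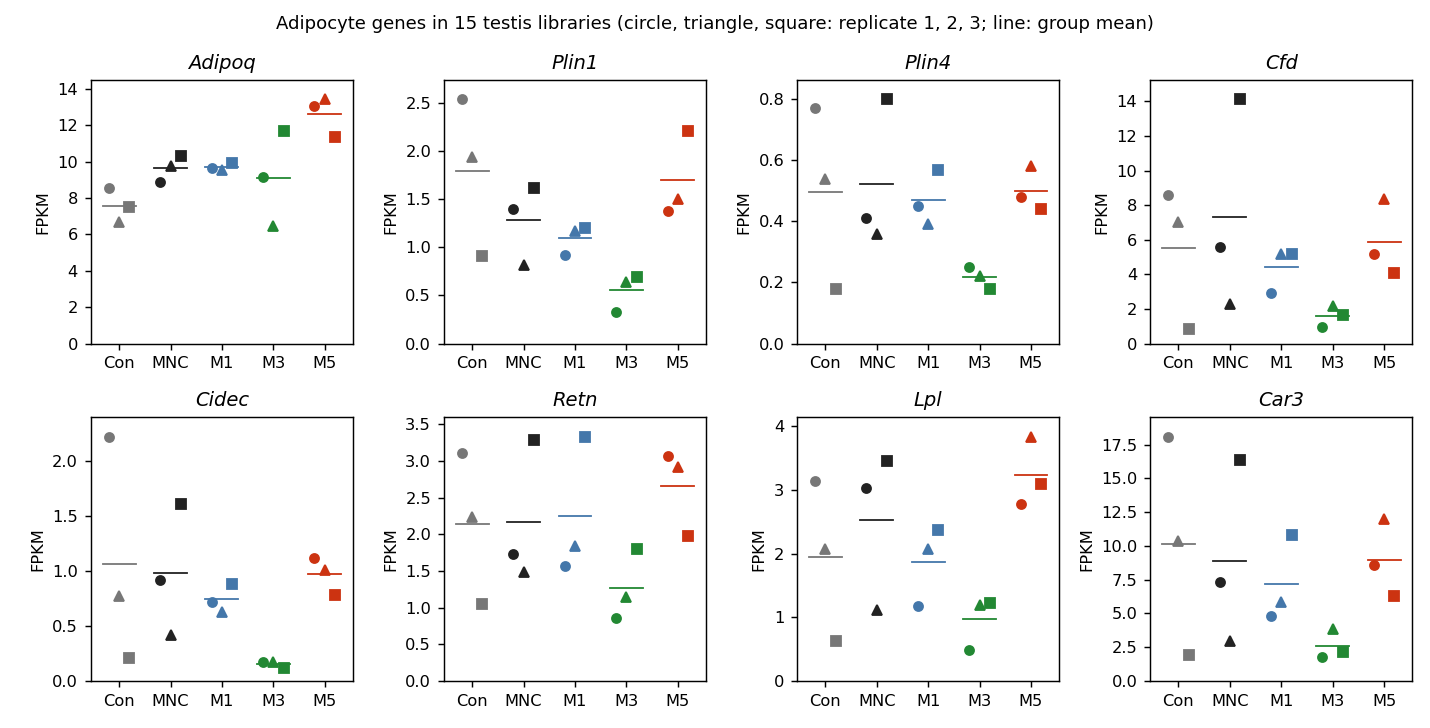
FPKM of the 8 genes (vertical axes, each from 0) in the 5 groups (horizontal axes), with 1 point per library and a line at the group mean of n = 3. Con and MNC spread widely in the genes other than Adipoq, the M3 libraries sit low in those genes, and M5 is highest in Adipoq at 11.34 to 13.43 FPKM.

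Ordering the groups by their mean level gave few steps larger than the spread between libraries. For Cfd, MNC was at 7.34 ± 6.10 FPKM (SD, n = 3), M5 at 5.86 ± 2.22, Con at 5.50 ± 4.08, M1 at 4.43 ± 1.31 and M3 at 1.59 ± 0.62. Of the neighbours in this order, M1 and M3 did not overlap, and the others did. For Car3, Con was at 10.1 ± 8.09 FPKM (SD, n = 3), M5 at 8.96 ± 2.86, MNC at 8.90 ± 6.83, M1 at 7.16 ± 3.20 and M3 at 2.56 ± 1.1. Here again the step from M1 to M3 was the one without overlap. For Adipoq, M5 was at 12.6 ± 1.11 FPKM (SD, n = 3), M1 at 9.72 ± 0.20, MNC at 9.64 ± 0.73, M3 at 9.11 ± 2.62 and Con at 7.59 ± 0.92. The M5 libraries cleared those of M1, the next group in order, while M1, MNC and M3 overlapped.

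The libraries that were high in one of the 7 genes were mostly high in the others. Con replicate 1 was among the 3 highest libraries for 7 of the 7 genes, MNC replicate 3 for 6 and M5 replicate 2 for 4. At the low end, M3 replicate 1 was among the 3 lowest for 6 of the 7, Con replicate 3 and M3 replicate 3 for 5 each, M3 replicate 2 for 4 and MNC replicate 2 for 1. Adipoq ranked these libraries otherwise. Con replicate 1 was the 4th lowest for Adipoq, and M3 replicate 3 was the 13th of 15.

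Across the 15 libraries, the 21 pairs among the 7 genes had Pearson r of 0.72 to 0.963 on the log2(FPKM + 1) scale, with a median of 0.851. Spearman rho was 0.743 to 0.968. The closest pair was Cfd and Car3. After the mean of each group was subtracted, the same 21 pairs had r of 0.645 to 0.964 with a median of 0.825, so the joint movement was present within groups. Without Con replicate 1 and MNC replicate 3, whose sums lay farthest from the median of 18.87 FPKM, r was 0.658 to 0.965 over the 13 libraries left, with a median of 0.824. The 7 pairs of Adipoq with the others had r of 0.12 to 0.471 with a median of 0.235, and of 0.007 to 0.423 after group means were subtracted. These correlations are descriptions, since the genes of a pair are measured in the same library and share its depth.

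Fabp4, a fatty acid carrier of adipocytes and capillary endothelium that is no member, followed the 7 genes most closely. It was at 19.15, 10.54 and 2.16 FPKM in Con replicates 1, 2 and 3 and at 13.56, 4.94 and 19.95 in MNC. In M1 it was at 6.36, 7.42 and 12.04, in M3 at 1.78, 3.75 and 3.67, and in M5 at 13.97, 18.01 and 8.97 FPKM. The ratio of Car3 to Fabp4 stayed between 0.541 and 1.02 over the 15 libraries, a 1.88-fold range. The ratio of Cfd to Fabp4 stayed between 0.371 and 0.708, a 1.91-fold range. The ratio of Adipoq to Fabp4 ran from 0.446 in Con replicate 1 to 5.14 in M3 replicate 1, an 11.5-fold range. For the other 5 genes the ratio to Fabp4 spanned 2.11-fold for Lpl, 3.55-fold for Cidec, 3.84-fold for Retn, 4.65-fold for Plin4 and 5.19-fold for Plin1. Car3 and Cfd kept the narrowest proportion to Fabp4 of the 8 genes, and Adipoq the widest.

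**Figure D3:**
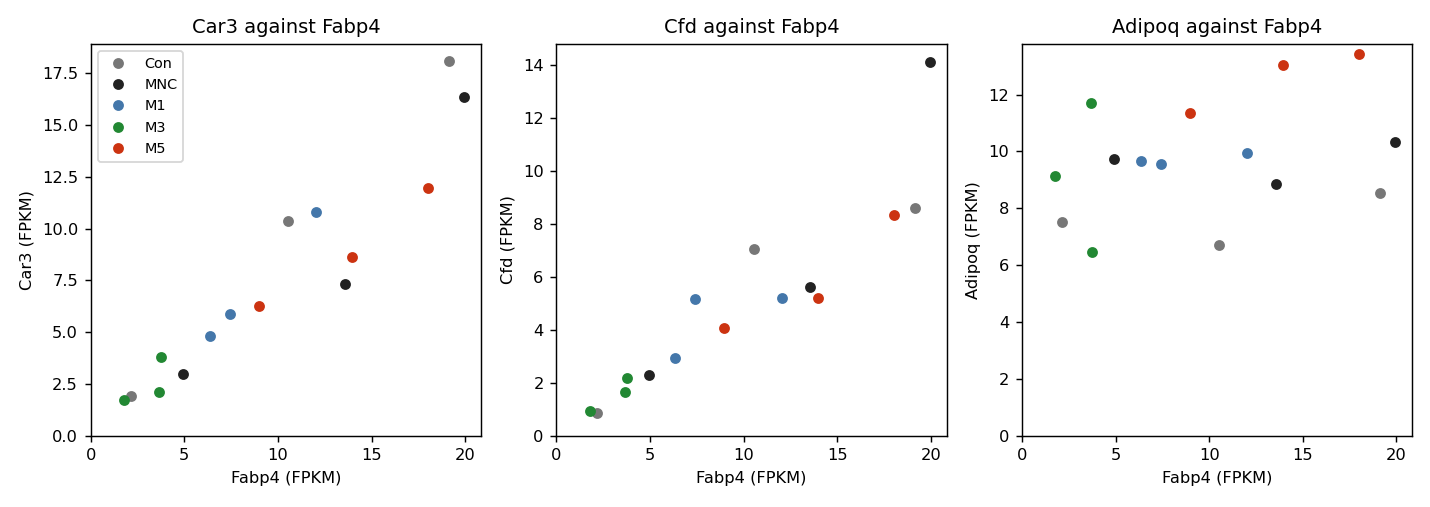
Car3, Cfd and Adipoq (vertical axes, FPKM) against Fabp4 (horizontal axes, FPKM) in the 15 libraries, coloured by group. Car3 and Cfd rise in proportion to Fabp4, with ratios of 0.541 to 1.02 and 0.371 to 0.708, while Adipoq lies between 6.47 and 13.43 FPKM at any level of Fabp4.

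The 5 genes most like the 6 tested members, by Pearson r over the 15 libraries with the mean of their z-scores, were Fabp4 (r = 0.973), Cyp2e1 (0.867), Hp (0.78), Idua (0.772) and Scd1 (0.745). Cyp2e1 is a cytochrome P450 and Hp encodes haptoglobin, both made by liver and by fat. Scd1, a fatty acid desaturase, is abundant in adipocytes. Idua is a lysosomal enzyme and ranged only from 0.89 to 1.19 FPKM. The list for Adipoq alone was another one, with Naa38 (r = 0.916), Rpl41 (0.892), Prm3 (0.882), 1700015G11Rik (0.881) and BGI_novel_G000633 (0.88), an ID without a name. Naa38 belongs to an N-terminal acetyltransferase complex, Rpl41 is a ribosomal protein and Prm3 a protamine of spermatids. The spermatid genes Prm1, Prm2 and Tnp1 had r of 0.731, 0.738 and 0.709 with Adipoq, and of -0.085, -0.146 and -0.164 with the mean z-score of Plin1, Cfd, Retn, Lpl and Car3. Of the other 7 germ cell genes listed, Spata18 had r of 0.517 with Adipoq, Sycp1 0.361, Ddx4 0.161, Sycp3 0.004 and Dazl -0.054, and the spermatid genes Tnp2 and Acrv1 had -0.128 and -0.148. The part of spermatid content in the Adipoq values was not tested.

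Sequence upstream of the start of Adipoq, Cfd and Plin1 is shown because Adipoq departed from the joint pattern, Cfd followed it closely, and Plin1 held matches to a motif. The sequences are the 250 bases before the start from the RefSeq promoter table (GRCm38.p6), written 5′ to 3′ on the strand of the gene, at chr16:23146286-23146535 (plus), chr10:79890603-79890852 (plus) and chr7:79732777-79733026 (minus). Capitals mark matches to TTGCNNAA, a pattern bound by C/EBP factors, which drive adipocyte genes.
Adipoq: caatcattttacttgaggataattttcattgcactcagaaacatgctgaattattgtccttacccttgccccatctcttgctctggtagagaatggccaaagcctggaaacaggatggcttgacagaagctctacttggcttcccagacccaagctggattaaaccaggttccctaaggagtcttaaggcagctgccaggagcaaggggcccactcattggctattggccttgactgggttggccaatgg
Cfd: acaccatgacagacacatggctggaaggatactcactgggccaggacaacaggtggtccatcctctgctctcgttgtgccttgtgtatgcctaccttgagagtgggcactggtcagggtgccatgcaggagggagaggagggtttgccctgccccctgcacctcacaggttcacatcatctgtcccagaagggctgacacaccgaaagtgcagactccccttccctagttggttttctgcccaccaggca
Plin1: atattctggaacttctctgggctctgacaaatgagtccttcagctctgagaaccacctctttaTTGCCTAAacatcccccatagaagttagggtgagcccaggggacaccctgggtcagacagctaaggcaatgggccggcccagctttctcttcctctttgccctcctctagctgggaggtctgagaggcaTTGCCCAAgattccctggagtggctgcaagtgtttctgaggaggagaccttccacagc
The table held windows of 250 bases before and 50 after the start for 6 of the 8 members, 7 windows in all, with 2 for Cidec and none for Lpl and Car3. On both strands they were searched for AGGTCA, a half-site of nuclear receptors such as PPARG, for TTGCNNAA and for TATAAA, the TATA box. Matches to TTGCNNAA began 187 and 58 bases before the start of Plin1, and 1 of the Cidec windows held 1 match, none overlapping another. The start is that of RefSeq. The Plin1 locus given above reaches 79732903, so the match at 58 bases lies inside that locus. No other member window held any of the 3 motifs. Of 32817 distinct promoter windows, 16.3% held AGGTCA, 10.8% TTGCNNAA and 13.6% TATAAA.

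The groups were compared with limma on log2(FPKM + 1) over the 14514 genes whose FPKM averaged at least 1, and a gene was called at a Benjamini-Hochberg adjusted p under 0.05. None of the 6 tested members was called in any of the 6 pairwise comparisons. The comparisons share groups, so their values are not independent of each other. The members other than Adipoq moved together, so counts of members are not counts of separate results. All differences below are differences of group means of log2(FPKM + 1), which understate the change of genes at low FPKM.

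M5 and M3 differed in the same direction for all 6 tested members. Car3 was 1.49 ± 0.28 higher in M5 (difference ± SE), Cfd 1.39 ± 0.27, Lpl 1.12 ± 0.19, Plin1 0.79 ± 0.17, Retn 0.70 ± 0.20 and Adipoq 0.46 ± 0.19. limma called 0 of the 6, with adjusted p of 0.290 to 0.349, against 0.0138% of all genes called. At an unadjusted p under 0.05 all 6 members were higher in M5, against 8.78% of all genes tested. Between these groups 7 of the 8 members, and 5 of the 6 tested, did not overlap, with every M5 library above every M3 library, against 14.4% of all genes tested. Adipoq was the exception. The other 7 rose and fell together (r of 0.72 to 0.963), so these counts do not come from independent genes. The median difference over the 6 members was 0.96, beside 0.06 over all genes. For Cidec the ratio of group means was 6.33 and for Plin4 it was 2.31 (exact permutation p = 0.1 for each, the smallest possible). Leaving out each library in turn kept the direction of every tested member. Markers of several other cell types moved the same way between these groups. Macrophage genes were higher in M5 for 9 of 9, all at an unadjusted p under 0.05, with a median difference of 0.87. Red blood cell genes were higher for 5 of 5, all at that p, with a median of 1.83. Fibroblast genes were higher for 9 of 9, 5 of them at that p (median 0.67), and Leydig cell genes for 9 of 9, 1 of them at that p (median 0.82). limma called 0 genes of these 4 lists. Sertoli cell genes were higher for 10 of 10, 0 of them at that p (median 0.20). Germ cell genes were mixed, 7 higher and 3 lower. Epididymis genes went the other way, lower in M5 for 4 of 6 (median -0.08). The part of other cell types in the difference of the members was not tested.

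M3 was also low beside its vector control. Cfd was lower in M3 than in MNC by a difference of -1.44 ± 0.53, Car3 by -1.27 ± 0.52, Lpl by -0.79 ± 0.31, Plin1 by -0.54 ± 0.18, Retn by -0.46 ± 0.25 and Adipoq by -0.11 ± 0.19. Again limma called 0 of the 6 members, with adjusted p of 0.518 to 0.838, and 0.00689% of all genes. Of the 6 members, 4 had an unadjusted p under 0.05 and were lower in M3, against 6.19% of all genes. The groups did not overlap for 4 of the 8 members, Plin1, Plin4, Cfd and Cidec, which are 2 of the 6 tested, against 10.6% of all genes. For Lpl and Car3, MNC replicate 2 was within the range of M3, and for Retn MNC replicates 1 and 2 were. The ratio of means was 0.156 for Cidec and 0.414 for Plin4 (exact permutation p = 0.1 for each). The median difference was -0.67 over the 6 members and -0.04 over all genes. Without MNC replicate 2 the difference of Cfd was -1.98 and that of Car3 -1.80, and without MNC replicate 3 they were -0.88 and -0.74. Here too other lists moved. Macrophage genes were lower in M3 for 9 of 9, 5 of them at an unadjusted p under 0.05 (median -0.53), Leydig cell genes for 7 of 9, 2 at that p (median -0.64), and fibroblast genes for 7 of 9, 0 at that p (median -0.32). Epididymis genes were higher for 5 of 6, and 4 of the 6 had that p (median 0.40). limma called 0 genes of these 4 lists, and their part in the levels of the members was not tested.

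No difference between M5 and MNC was called in the genes that moved together. The differences were -0.06 ± 0.54 for Cfd, 0.22 ± 0.52 for Car3, 0.33 ± 0.29 for Lpl, 0.24 ± 0.24 for Retn and 0.25 ± 0.19 for Plin1. These standard errors leave room for sizeable differences either way. Adipoq was 0.35 ± 0.10 higher in M5, with no overlap of libraries, and was not called (limma, adjusted p = 0.0876). It was the 1 member of 6 with an unadjusted p under 0.05, against 24.9% of all genes, and limma called 0 members beside 5.65% of all genes. With Con in place of MNC, the difference of Adipoq was 0.67 and it was called (limma, adjusted p = 0.0103), while over all alternatives the adjusted p ran from 0.0103 to 0.257.

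In the other 3 comparisons limma again called 0 of the 6 members. Between M1 and MNC, differences ran from -0.38 ± 0.54 for Cfd to 0.04 ± 0.28 for Retn, and 0 members had an unadjusted p under 0.05 with limma, against 5.94% of all genes, and 0.0% of all genes were called. Between MNC and Con, limma called 20.4% of all genes and 0 members. Adipoq was 0.31 ± 0.10 higher in MNC (adjusted p = 0.069) and was the 1 member with an unadjusted p under 0.05, against 40.1% of all genes. Cfd differed by 0.40 ± 0.78 and Car3 by -0.04 ± 0.81, with standard errors that reflect the spread within Con and MNC. Between M5 and M1, where limma called 6.75% of all genes and 0 members, Adipoq was higher in M5 by 0.34 ± 0.08 (adjusted p = 0.0595), Lpl by 0.58 ± 0.19 (0.120) and Plin1 by 0.35 ± 0.15 (0.191). All 6 members were higher in M5, and these 3 had an unadjusted p under 0.05, against 25.4% of all genes in either direction. Adipoq was called in this comparison without M5 replicate 3, at a difference of 0.41, and with the filter raised to 5 FPKM, and over all alternatives its adjusted p ran from 0.0188 to 0.240. The shares of all genes called changed when single libraries were left out, and each such fit has 1 library fewer. The 2967 calls of MNC against Con fell to 8 without Con replicate 1 and to 195 without Con replicate 2. The 820 of M5 against MNC fell to 35 without M5 replicate 2, and the 980 of M5 against M1 to 56 without M1 replicate 1. The counts of 8, 35 and 56 were the lowest of each comparison without 1 library. Without M5 replicate 3 the counts rose to 946 for M5 against MNC and to 1690 for M5 against M1. MNC against Con kept 2497 calls without MNC replicate 1.

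**Figure D4:**
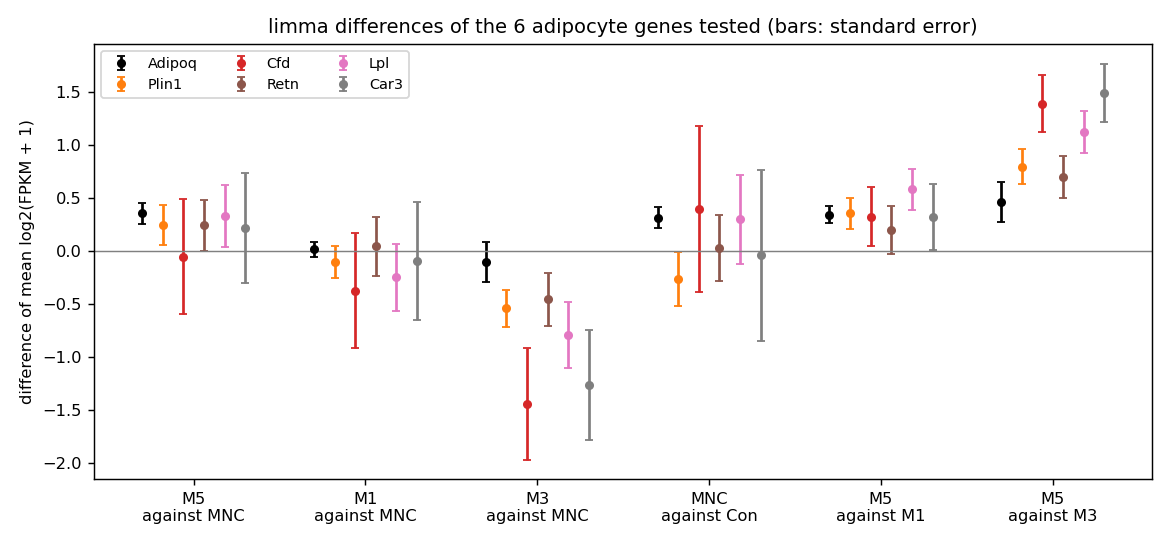
Difference of mean log2(FPKM + 1) (vertical axis) of the 6 tested genes in the 6 comparisons of groups of 3 libraries (horizontal axis), with bars of 1 standard error. The differences of M5 against M3 are all above 0, from 0.46 for Adipoq to 1.49 for Car3, and the standard errors of Cfd and Car3 are widest for MNC against Con.

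A single test over the 5 group means, the moderated F test of limma, called Adipoq (adjusted p = 0.0383) and Plin1 (adjusted p = 0.0437). These are 2 of the 6 tested members, against 33.6% of all genes called by the same test, so the share among the members was near the background. Cfd, Car3, Retn and Lpl were not called (adjusted p = 0.245, 0.262, 0.311 and 0.122). When each of the 15 libraries was left out in turn, Adipoq was still called in 4 of the 15 fits and Plin1 in 2, and the adjusted p ran from 0.00669 to 0.106 for Adipoq and from 0.0138 to 0.133 for Plin1.

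Another 39 genes of adipocytes were examined, of which 27 passed the filter on mean level, and most did not move with the members. Over the 15 libraries, 2 of the 27 had r above 0.7 with the mean z-score of Plin1, Cfd, Retn, Lpl and Car3, namely Fabp4 (0.98) and Scd1 (0.812), and 9 of the 27 were below 0. Of all 14514 genes tested, 16 had r above 0.7, and these 16 include the 5 members that make up the score. The median r was 0.142 for the 27 and 0.118 for all genes. The 11 genes of the list with a mean above 25 FPKM had r of -0.343 to 0.044. Among them were Lipe, hormone-sensitive lipase, at 51.91 to 116.44 FPKM, Adig, adipogenin, at 27.55 to 46.56 FPKM, and Bscl2, seipin, at a mean of 230.3 FPKM. These 11 genes were thus not those that followed the members. Below that level, Acly at a mean of 18.151 FPKM had r of 0.403, Acaca at 11.487 FPKM 0.12 and Fasn at 11.152 FPKM 0.267.

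Low genes of the list included the hormone leptin. Lep was at 0.31 FPKM in Con replicate 1, 0.25 in MNC replicate 3 and 0.01 in M3 replicate 1, and Pck1, which serves glycerol synthesis in fat, ran from 0.06 to 0.52 FPKM. Their r with the 5 members were 0.808 and 0.888, at levels where single reads weigh heavily. Of the list's other genes below the filter, Pnpla3 had r of 0.786, Sncg 0.655, Adrb3 0.654, Plin5 0.445, Nnat 0.434 and Slc2a4 0.394. Mest had r of 0.294, Trarg1 0.132, Ucp1 0.119 and Lgals12 0.118. Pparg, the nuclear receptor that drives adipocyte formation, was at 1.09 to 1.92 FPKM with r of 0.183. Ucp1, the uncoupling protein of brown fat, was listed at 0 in 3 libraries and at 0.08 FPKM at most.

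**Figure D5:**
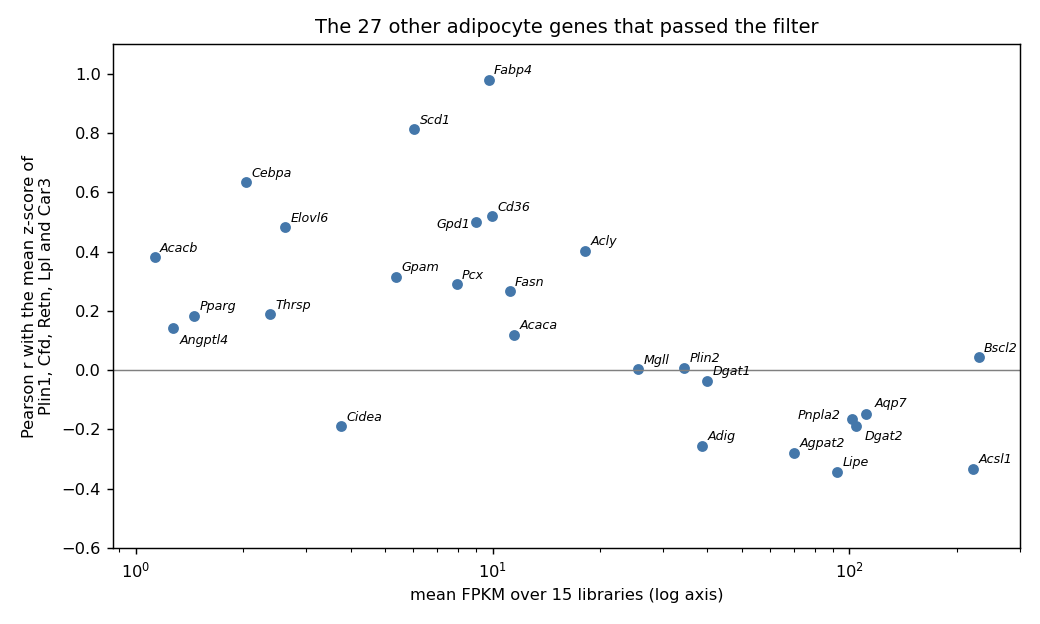
Pearson r over 15 libraries with the mean z-score of Plin1, Cfd, Retn, Lpl and Car3 (vertical axis) against mean FPKM (horizontal axis, log scale) for the 27 other adipocyte genes that passed the filter. Fabp4 (0.98) and Scd1 (0.812) lie at the top, and the 11 genes above 25 FPKM lie between -0.343 and 0.044.

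Calls among the 27 other adipocyte genes are given beside the share of all genes called by the same test. In M5 against MNC, limma called 3 of the 27, all lower in M5, beside 5.65% of all genes. Pnpla2, the lipase that opens triglyceride breakdown, differed by -0.40 ± 0.05 (adjusted p = 0.0169), Dgat1 by -0.42 ± 0.07 (0.0317) and Dgat2 by -0.30 ± 0.05 (0.0347). Dgat1 and Dgat2 make the final bond of triglyceride. In M5 against M1, Pnpla2, Dgat1 and Aqp7, a glycerol channel, were called lower, 3 of the 27 beside 6.75% of all genes. In MNC against Con, 7 of the 27 were called, beside 20.4% of all genes, and the F test over 5 groups called 11 of the 27, beside 33.6%. Agpat2, Lipe, Acsl1, Adig, Aqp7 and Dgat2 were higher in MNC, led by Agpat2 at 0.72 ± 0.14 (adjusted p = 0.0269), and Pcx, pyruvate carboxylase, was lower at -0.31 ± 0.08 (adjusted p = 0.0383). limma called 0 of the 27 in M1 against MNC, M3 against MNC and M5 against M3. In these comparisons 2, 5 and 7 had an unadjusted p under 0.05, against 5.94%, 9.43% and 14.3% of all genes. The 2 and the 5 were all lower than in MNC. Of the 7, Fabp4 and Scd1 were higher in M5, and Adig, Dgat1, Lipe, Pnpla2 and Dgat2 were lower. Over all 27, 23 were lower and 4 higher in M3 than in MNC (median difference -0.13). Between M5 and M3, 16 were higher and 11 lower in M5 (median 0.04).

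Markers of other tissues were summed per library to see what moved with the members. The sum of 12 endothelial genes had r of 0.904 with the mean z-score of the 5 members, but Fabp4 and Cd36 stand in both that list and the adipocyte list, and without them the 10 genes left had r of 0.425. Skeletal muscle also makes Car3 and Lpl, and its 16 listed genes had r of 0.551. They summed to 5.74 to 10.13 FPKM, led by Actn3 at 1.88 to 3.88 FPKM, and 2 of the 16 passed the filter. Fibroblast genes, led by Dcn, had r of 0.496, Leydig cell genes 0.443, mesothelial genes, led by Wt1, 0.377 and macrophage genes, led by Lyz2, 0.326. Sertoli cell genes had r of 0.178, red blood cell genes, led by Hba-a1, 0.16 and germ cell genes -0.157. For smooth muscle genes, led by Actg2, r was -0.179, and for epididymis genes, led by Cst8, -0.386. Some sums were mostly 1 gene. In MNC, Cst8 was at 222.78 to 250.23 FPKM of an epididymis sum of 232.45 to 259.39. Actg2 was at 149.6 to 178.66 FPKM of a smooth muscle sum of 190.24 to 214.49. Wt1, which also stands in the Sertoli cell list, was at 12.76 to 15.74 FPKM of a mesothelial sum of 17.45 to 19.03. The r of these 3 lists mostly describe those genes. M3 replicate 1, the lowest library for the 7 members, was also the lowest of the 15 for Leydig cell genes (705 FPKM against up to 3274). The same held for fibroblast genes (54.4 FPKM), endothelial genes (20.4), skeletal muscle genes (5.74) and mesothelial genes (14.19). For epididymis genes this library was the highest of the 15 (332.52 FPKM). That sum too was mostly Cst8, at 241.01 to 297.96 FPKM in M3, and 6 of the 17 listed genes passed the filter. The part of these tissues in the levels of the members was not tested.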

How the data were processed

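RNA from testis was sequenced in 15 libraries, 3 per group, and groups were taken from the sample titles. Titles and sources name testis, though the labels' extraction note mentions sperm. For M5 replicate 2 the label's description points to the M5 replicate 1 column, so it was matched by title. Per the study's methods, the RNA was poly(A) selected, and SOAPaligner mapped the reads. The submitters' processing notes name the build mm10, and the annotation is not given in the sources used here. The authors deposited FPKM values (fragments scaled by gene length and by the library's mapped total) to 2 decimals for 23510 gene IDs, of which 21143 (89.9%) matched RefSeq gene IDs. The methods call the expression values RPKM and the columns are named FPKM. Library depth is not part of the table. Low values stepped evenly in only 10 to 19 genes per library, too few to set relative depth, so no count model was run.

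Values were analysed as log2(FPKM + 1). The 14514 genes whose FPKM averaged at least 1 were tested with limma 3.58.1 (eBayes with trend, two-sided) in R 4.3.3. Pairwise fits used the libraries of those 2 groups without covariates, a moderated F test held all 5 groups, and Benjamini-Hochberg adjustment ran over all genes tested. The study's methods name DEGseq, and limma was used here because the table holds FPKM. Members below the filter were compared by two-sided exact permutation tests. The fits were tried on simulated data with noise drawn separately for each gene, so variation shared between genes was not simulated. Loci came from GENCODE vM21 on GRCm38, and upstream sequence from RefSeq with Python 3.11.15. The named genes are the 8 members, other adipocyte genes called in a pairwise comparison, Fabp4, Pparg, Lep, Ucp1, Lipe and Adig, the most abundant gene of each marker list, and the 5 genes most like the members and like Adipoq. Scd1, Pck1, Bscl2, the remaining genes of the other adipocyte list below the filter and the germ cell genes beyond Prm1 were named after their values were seen. The members and lists were chosen with earlier results of these data known.

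Alternatives were a pseudocount of 0.1, filters at 0.1 and 5 FPKM and none, median centring, quantile normalization, scaling to summed FPKM, eBayes without trend, the study's threshold (adjusted p of 0.001 and a log2 difference of 1), the replicate number as a block, all groups in one fit, Con in place of MNC, and the omission of single libraries in turn. The r without Adipoq and without the farthest libraries were added after seeing the data. Replicate numbers did not pair the libraries (r of deviations from group means -0.399 to 0.177 for the same number).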

Additional observations from a re-analysis of the deposited data

How the results depend on the processing

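In the 6 pairwise comparisons the number of members called by limma stayed at 0 under most alternatives. It became 1, each time Adipoq, in M5 and in M1 when Con was the control, and in M5 against M1 with a filter at 5 FPKM. Leaving out single libraries gave 0 to 1 in M5 against M1, and 0 to 0 in the others. In the F test over 5 groups, which called 2, the count was 1 with a filter at 0.1, with a filter at 5 and after quantile normalization, 0 without a filter, after centring, at the study's threshold and with the replicate number as a block, and 0 to 1 without single libraries.

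Of the single members, these turned direction. With Con as the control they were Adipoq in M3 (0.21), Plin1 in M5 (-0.019), Cfd in M5 (0.34) and M1 (0.019), and Lpl in M1 (0.042). In MNC against Con they were Cidec (-0.022) and Retn (-0.025) after scaling to summed FPKM, and Car3 after centring (0.0455) and quantile normalization (0.0010). Plin4 in M5 against MNC was 0.0042 with a pseudocount of 0.1. Without single libraries the ranges that crossed 0 were, against MNC, Adipoq in M1 (-0.041 to 0.058) and M3 (-0.29 to 0.10), Plin1 in M1 (-0.26 to 0.0019), Cfd in M5 (-0.59 to 0.51) and M1 (-0.91 to 0.19), Retn in M1 (-0.19 to 0.28), Lpl in M5 (-0.0077 to 0.53), and Car3 in M5 (-0.31 to 0.75) and M1 (-0.63 to 0.43). For MNC against Con they were Cfd (-0.35 to 0.93), Retn (-0.25 to 0.25), Lpl (-0.086 to 0.63) and Car3 (-0.82 to 0.53). The cause was not tested. M5 against M3 kept its directions under all alternatives run.

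Over all genes, the replicate block left 14 calls of 820 in M5 against MNC, 10 of 2967 in MNC against Con and 39 of 980 in M5 against M1. MNC against Con called 1166 genes higher and 1801 lower, 1449 and 420 after centring, and 995 and 3459 after scaling. With 3 libraries a group and levels under 20 FPKM, standard errors of the members reach 0.81, and the read depth behind each value is unknown.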
